A study of Mus musculus with 10 samples.

Results

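The proteasome is the protease complex that degrades ubiquitin-tagged proteins, and the genes described here are those that the array names Psma, Psmb, Psmc, Psmd or Psme followed by a number. The array held 43 such gene names among 35527. They were profiled in the infrarenal aorta of male C57BL/6J mice, 10 weeks old and fed a normal diet. In the PPE group, the isolated aortic segment was filled for 5 min at 100 mmHg with saline that contained type I porcine pancreatic elastase at 1.5 U per mL, a protease that breaks down the elastic fibres of the wall and is used to model abdominal aortic aneurysm (AAA). Sham mice had the same surgery with saline alone. The whole segment was taken 7 days later from 5 mice per group, with 1 aorta per array. RNA therefore came from every cell type of the wall. Aortic RNA was labelled red and a universal mouse reference RNA green on each of the 10 arrays. Each value below is the log2 of aortic over reference signal, and each log2 difference is PPE minus sham.

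As background, the core particle of the proteasome is a barrel of alpha rings (Psma genes) around beta rings (Psmb genes). Psmb5, Psmb6 and Psmb7 encode the constitutive catalytic subunits. Interferon-gamma induces Psmb8, Psmb9 and Psmb10, whose products take the places of Psmb5, Psmb6 and Psmb7, in that order, in newly made particles. The result is the immunoproteasome, known for cutting peptides that suit MHC class I molecules. The regulatory particle caps the barrel with ATPases (Psmc genes) that unfold substrates and with non-ATPase subunits (Psmd genes). Psme1 and Psme2 encode the interferon-inducible PA28 activator, Psme3 encodes a nuclear relative of it, and Psme4 encodes the activator PA200. Psma8 and Psmb11 are the testis and thymus forms of an alpha and a beta subunit.

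At the level of single arrays, red signal was well above background on 37.6% to 65.8% of the spots, with the lowest share on sham 5. Of 22520 gene names tested, 3116 were called higher and 2243 lower in PPE aorta (limma, Benjamini-Hochberg adjusted p under 0.01). The arrays fell on 5 slides, of which slide 1 (sham 1, PPE 1 and PPE 2) and slide 2 (sham 2, sham 3, PPE 3 and PPE 4) held both groups. Of the 43 proteasome names, 41 were well above background on all 10 arrays. Psma8 and Psmb11 were well above background on none of the 10 arrays in either channel and were not tested. Below, the 5 genes Psmb8, Psmb9, Psmb10, Psme1 and Psme2 are called inducible and the other 36 tested genes constitutive, a label that also covers the base assembly chaperones Psmd5, Psmd9 and Psmd10.

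The inducible catalytic genes Psmb8 and Psmb9 lie close together with the peptide transporter genes. On mm9, the build of the probe positions, the probes of Psmb9 (34319174 to 34319233), Tap1 (34330854 to 34330913), Psmb8 (34337771 to 34337830) and Tap2 (34353116 to 34353175) follow each other on chromosome 17. Tap1 and Tap2 encode the transporter that carries proteasome products into the endoplasmic reticulum. In the RefSeq promoter table (GRCm38.p6), the first transcribed bases of Psmb9 and Tap1 point away from each other with 225 bases between them. The probe of Psmb10 lies on chromosome 8 (108459677 to 108459736), and those of Psme1 (56200194 to 56200253) and Psme2 (56206296 to 56206355) lie near each other on chromosome 14. The constitutive Psmb5 is on chromosome 14 too (55232957 to 55233016). Whether a probe lies in a coding exon or a UTR was not analysed here.

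The 250 bases before the start are shown for the inducible Psmb8 and Psmb9 and for the constitutive genes Psmb5 and Psmb6 whose products they replace, because these pairs moved apart most in PPE aorta (described below). The stretches are chr17:34197945-34198194 (+ strand) for Psmb8, chr17:34187331-34187580 (- strand) for Psmb9, chr14:54617996-54618245 (- strand) for Psmb5 and chr11:70525107-70525356 (+ strand) for Psmb6, all GRCm38.p6 and 5′ to 3′ on the gene's own strand. In the stretch of Psmb9, the first 25 bases lie past the start of Tap1. Capitals mark letters that match the gamma-activated site TTCNNNGAA, an element of interferon-gamma responses (in Psmb8), or the antioxidant response element TGACNNNGC, bound by NRF1 and NRF2 (in Psmb5 and Psmb6).
Psmb8: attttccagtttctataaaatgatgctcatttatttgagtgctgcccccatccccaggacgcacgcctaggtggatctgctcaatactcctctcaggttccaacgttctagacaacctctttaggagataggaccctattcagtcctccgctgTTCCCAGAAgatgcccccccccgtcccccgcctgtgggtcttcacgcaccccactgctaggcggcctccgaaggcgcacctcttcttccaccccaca
Psmb9: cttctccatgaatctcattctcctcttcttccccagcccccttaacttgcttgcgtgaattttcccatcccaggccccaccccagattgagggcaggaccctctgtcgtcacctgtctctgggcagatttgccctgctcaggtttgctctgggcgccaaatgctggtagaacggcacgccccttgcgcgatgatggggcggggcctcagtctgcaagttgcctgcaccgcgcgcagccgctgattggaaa
Psmb5: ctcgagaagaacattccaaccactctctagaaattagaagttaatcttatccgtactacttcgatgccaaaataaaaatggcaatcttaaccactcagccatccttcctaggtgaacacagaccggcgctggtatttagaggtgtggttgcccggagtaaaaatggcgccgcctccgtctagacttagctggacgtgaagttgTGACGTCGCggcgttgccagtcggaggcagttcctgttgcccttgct
Psmb6: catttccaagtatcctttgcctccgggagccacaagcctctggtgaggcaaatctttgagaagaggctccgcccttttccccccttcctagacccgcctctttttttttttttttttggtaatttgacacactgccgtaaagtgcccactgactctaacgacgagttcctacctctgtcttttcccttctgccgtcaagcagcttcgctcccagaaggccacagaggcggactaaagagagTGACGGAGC

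Letters of 3 motifs were searched on both strands of these windows. The gamma-activated site TTCNNNGAA matched in 1 of the 5 inducible genes (Psmb8) and in 0 of 30 constitutive genes with a window, against 7.02% of all 32851 windows in the table. The interferon-stimulated element GAAANNGAAA matched in 0 of 5 inducible genes and in 3 of 30 constitutive genes (Psmb3, Psmd4 and Psmd9), against 2.98% of all windows. The antioxidant response element TGACNNNGC matched in 0 of 5 inducible genes and in 5 of 30 constitutive genes (Psmb5, Psmb6, Psmc6, Psmd12 and Psmd9), against 10.2% of all windows. A match is a run of letters and not a shown binding site, and no match says only that these letters are not in this window.

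All 5 inducible genes were higher in PPE aorta, whereas 2 of 36 constitutive genes were called higher and 0 lower. Over all genes tested, 13.8% were called higher and 9.96% lower, and the constitutive genes held fewer calls than either share would give. Without adjustment, 8 of the 36 had a p under 0.05, as did 43.6% of all genes tested. The log2 differences of the inducible genes ran from 1.04 to 2.27, a rise of 2.06-fold (Psme2) to 4.82-fold (Psmb8). Those of the constitutive genes ran from -0.42 (Psmc6) to 0.70 (Psmd10), with a median of 0.03 beside 0.02 over all genes. The lowest inducible value lay above the highest constitutive one over all 10 arrays and within slide 1 (1.24 against 0.83). Within slide 2 it did not, since Psme2 (0.70) lay below Psmd10 (0.77).

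**Figure D1:**
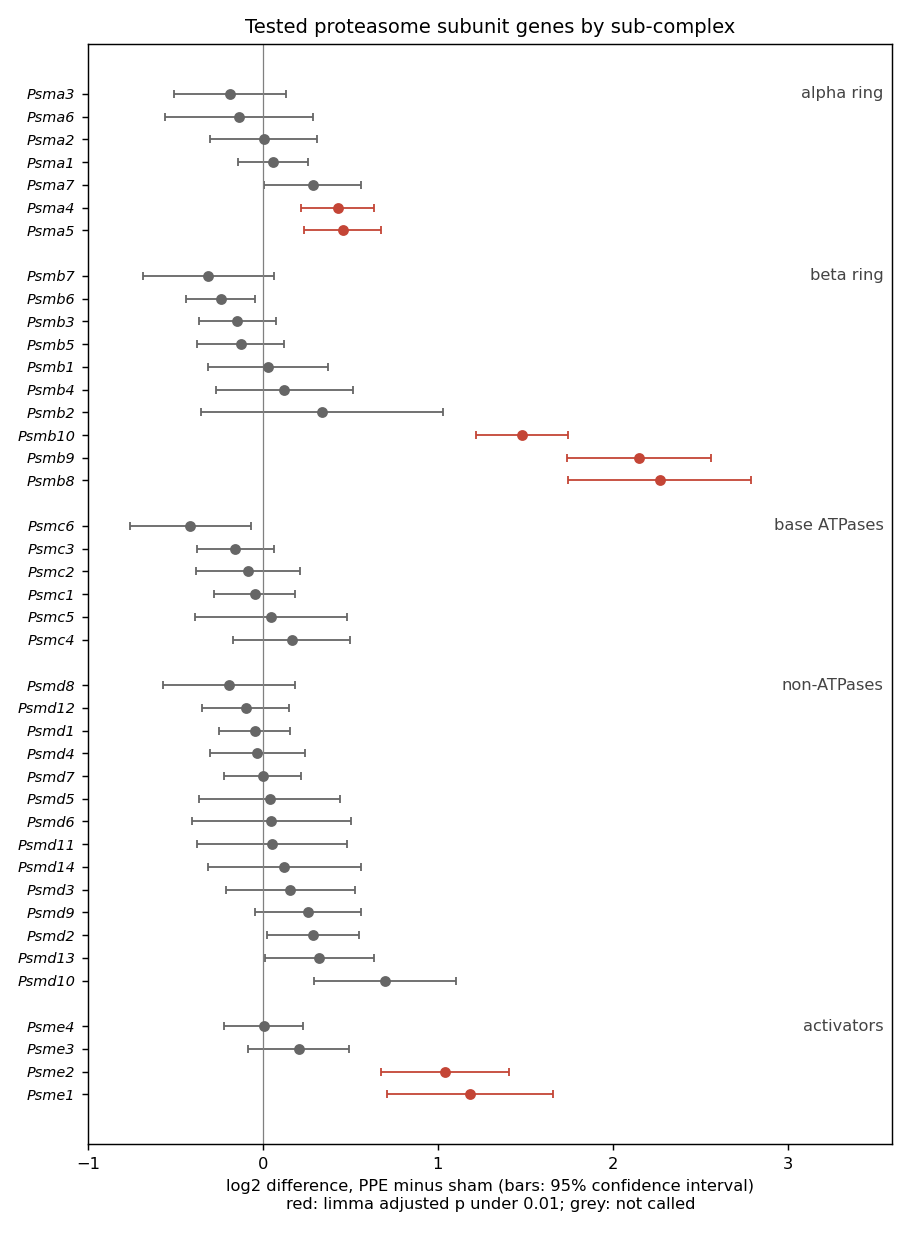
Log2 difference PPE minus sham (horizontal axis) of the 41 tested proteasome genes, grouped by sub-complex, with points for the difference and bars for its 95% confidence interval (5 arrays per group). Red points were called higher (limma adjusted p under 0.01); Psmb8, Psmb9, Psmb10, Psme1 and Psme2 lie between 1.04 and 2.27, and the others between -0.42 and 0.70.

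Psmb8, the inducible counterpart of the chymotrypsin-like subunit Psmb5, read -0.42, -0.49, -0.27, -0.45 and -0.54 on sham arrays 1 to 5 and 2.73, 1.99, 1.47, 1.82 and 1.17 on PPE arrays 1 to 5. The groups did not overlap, and the PPE arrays were spread more widely (SD 0.59, n = 5) than the sham arrays (SD 0.10, n = 5). The difference was 2.27 ± 0.24 (SE, limma adjusted p = 2.68e-05), which ranked 481 among all genes by size of increase. Within slide 1 it was 2.77 and within slide 2 it was 2.03.

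Psmb9, the inducible counterpart of Psmb6, read -0.21, -0.01, 0.01, 0.14 and -0.05 in sham and 2.84, 2.23, 1.88, 1.87 and 1.81 in PPE aorta. Again the groups were apart, and PPE 1 was the highest array. The difference was 2.15 ± 0.19 (SE, limma adjusted p = 6.74e-06), a 4.44-fold rise. Tap1, which starts back to back with Psmb9, rose by a log2 difference of 1.96 ± 0.20 (SE, limma adjusted p = 2.24e-05).

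Psmb10, the inducible counterpart of the trypsin-like subunit Psmb7, was the most even of the 5 genes across sham arrays. It read 0.25, 0.18, 0.22, 0.19 and 0.15 in sham and 2.06, 1.51, 1.56, 1.52 and 1.74 in PPE aorta. The groups did not overlap, and the difference was 1.48 ± 0.12 (SE, limma adjusted p = 3.99e-06), a 2.79-fold rise.

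The PA28 genes rose less. Psme1 read -0.07, -0.31, 0.13, 0.22 and -0.35 in sham and 1.71, 1.34, 0.94, 1.09 and 0.45 in PPE aorta. Its groups did not overlap, and PPE 5 lay nearest to the sham arrays. The difference was 1.18 ± 0.22 (SE, limma adjusted p = 0.00127).

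Psme2 read 0.07, 0.24, 0.21, 0.28 and 0.23 in sham and 1.43, 1.18, 1.08, 0.75 and 1.78 in PPE aorta. Here PPE 5, the lowest PPE array for Psmb8, Psmb9 and Psme1, was the highest. The difference was 1.04 ± 0.17 (SE, limma adjusted p = 0.000535). Psme2 had 3 tested probes, and the other two gave differences of 0.70 and 1.26. The last of these is placed by the files on chromosome 11, away from the gene, so it may read another copy. All 3 probes were called higher (limma adjusted p of 0.00639 or less over all probes).

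**Figure D2:**
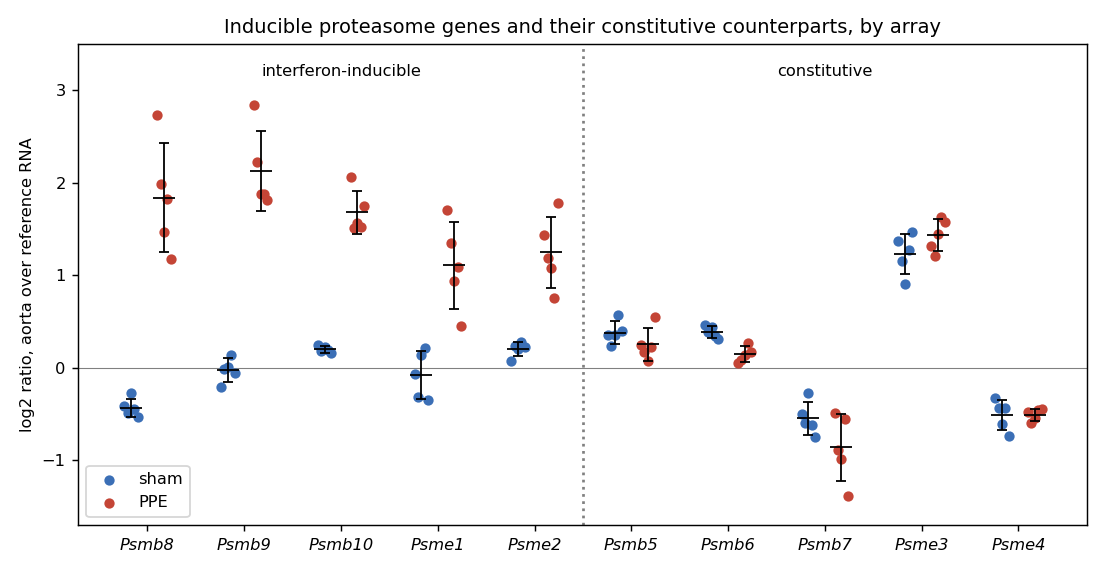
Log2 ratio of aorta over reference RNA (vertical axis) for the 5 inducible genes, the 4 constitutive counterparts and Psme4; each point is 1 array (5 sham, 5 PPE), with the mean and SD as black bars. The PPE points of the inducible genes lie above all sham points, while those of the constitutive genes overlap with sham except for Psmb6.

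The constitutive counterparts did not follow. Psmb5 read 0.35, 0.23, 0.36, 0.57 and 0.39 in sham and 0.25, 0.17, 0.07, 0.22 and 0.54 in PPE aorta, with a difference of -0.13 ± 0.11 (SE, limma adjusted p = 0.428). Psmb7 read -0.50, -0.59, -0.28, -0.62 and -0.75 in sham and -0.49, -0.89, -0.99, -0.56 and -1.39 in PPE aorta, with a difference of -0.31 ± 0.17 (SE, limma adjusted p = 0.185). For both genes the groups overlapped. Psmb6 read 0.46, 0.39, 0.44, 0.34 and 0.31 in sham and 0.05, 0.09, 0.14, 0.27 and 0.17 in PPE aorta. Its groups did not overlap, with all PPE arrays below all sham arrays, but the difference of -0.24 ± 0.09 (SE) missed the threshold (limma adjusted p = 0.0542). With median centring of the arrays in place of loess, described below, no constitutive difference was below 0. For Psmb5 the second probe gave 0.05, so its sign differed between probes.

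Among the activators, Psme3 read 1.36, 1.15, 0.90, 1.28 and 1.47 in sham and 1.32, 1.21, 1.45, 1.63 and 1.57 in PPE aorta, a difference of 0.20 ± 0.13 (SE, limma adjusted p = 0.268). Psme4 read -0.33, -0.43, -0.61, -0.44 and -0.74 in sham and -0.48, -0.60, -0.55, -0.46 and -0.45 in PPE aorta, a difference of 0.00 ± 0.10 (SE, limma adjusted p = 0.982). Both sets of arrays overlapped, and the 95% interval for Psme4 ran from -0.22 to 0.23. A second, dimmer probe of Psme4 gave -0.33 (limma adjusted p = 0.258 over all probes).

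To set each inducible gene against the subunit it replaces, or for PA28 against Psme3, the log2 ratios were subtracted within each array and the difference was compared between groups. Since different probes have no common scale, only the shift between groups can be read. Psmb8 minus Psmb5 ran from -1.02 to -0.63 on the sham arrays and from 0.63 to 2.48 on the PPE arrays, a shift of 2.40. Psmb9 minus Psmb6 ran from -0.67 to -0.20 in sham and from 1.60 to 2.79 in PPE aorta, a shift of 2.39. Psmb10 minus Psmb7 ran from 0.50 to 0.90 in sham and from 2.08 to 3.13 in PPE aorta, a shift of 1.80. For these 3 pairs the groups did not overlap, and each shift had p = 0.00794 (exact two-sided permutation test over all relabellings of the arrays, the smallest p this design can give). Adjusted over the 5 pairs, each was 0.0132. On the linear scale, the ratio of inducible to constitutive transcript rose 5.27-fold, 5.25-fold and 3.47-fold.

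The shifts of PA28 against Psme3 were smaller, and the groups overlapped. Psme1 minus Psme3 ran from -1.82 to -0.77 in sham and from -1.13 to 0.39 in PPE aorta, a shift of 0.98 (exact permutation p = 0.0238, adjusted 0.0238). Psme2 minus Psme3 ran from -1.29 to -0.69 in sham and from -0.87 to 0.20 in PPE aorta, a shift of 0.84 (exact permutation p = 0.0159, adjusted 0.0198). Within slide 1 these shifts were 1.70 and 1.34, and within slide 2 they were 0.59 and 0.19. From the red channel alone they were 0.50 (exact permutation p = 0.278) and 0.33 (exact permutation p = 0.317), so neither held there. The green signal of Psme3, which comes from the reference RNA, was 0.33 higher on the log2 scale in the PPE arrays.

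**Figure D3:**
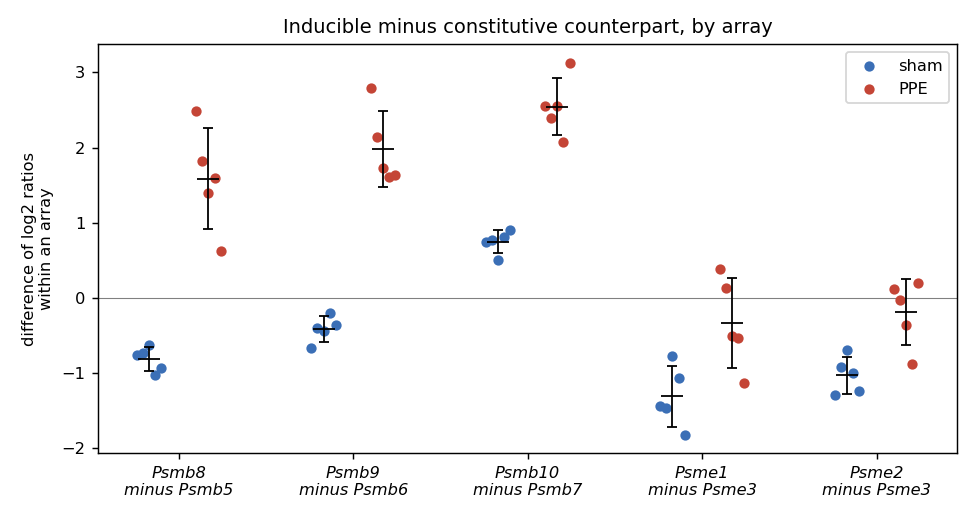
Difference between the log2 ratios of an inducible gene and its constitutive counterpart within each array (vertical axis) for 5 pairs; each point is 1 array (5 sham, 5 PPE), with the mean and SD as black bars. Sham and PPE points are apart for the catalytic pairs and overlap for both pairs with Psme3.

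In the alpha ring, which forms the gate of the core particle, 2 of 7 genes were called higher (13.8% of all genes were). Psma5 read -0.64, -0.52, -0.43, -0.52 and -0.51 in sham and 0.16, -0.23, -0.01, -0.12 and -0.14 in PPE aorta, a difference of 0.46 ± 0.10 (SE, limma adjusted p = 0.00433). Psma4 read -0.23, -0.28, -0.11, -0.16 and -0.30 in sham and 0.35, 0.12, 0.32, 0.15 and 0.10 in PPE aorta, a difference of 0.43 ± 0.10 (SE, limma adjusted p = 0.00454). Both pairs of groups were apart. The second Psma4 probe gave 0.25 (limma adjusted p = 0.150 over all probes). Both calls were lost without sham 1, sham 2, PPE 1 or PPE 3. They were also lost with an offset of 10 in the background correction, with slides as a fixed block, with a replicate block, with median centring and from the red channel alone. Without sham 4, Psma4 was called and Psma5 was not. Psma5 was called and Psma4 was not without sham 5 or PPE 4, from the scanner's LogRatio, from the series matrix and with the mean of probes. Psma3, the lowest of the ring, had overlapping groups (sham -0.14 to 0.40, PPE -0.28 to 0.26) and a difference of -0.19 ± 0.15 (SE).

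The constitutive beta ring genes, Psmb1 to Psmb7, had differences from -0.31 (Psmb7) to 0.34 (Psmb2). Of these, 0 of 7 were called, beside 13.8% of all genes called higher and 9.96% lower. Psmb2 was the least certain of the 7. It ran from -1.09 to -0.15 in sham and from -1.33 to 0.44 in PPE aorta, with a 95% interval of its difference from -0.35 to 1.03.

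The 6 ATPases of the base had differences from -0.42 (Psmc6) to 0.16 (Psmc4). None was called, beside 13.8% of all genes called higher and 9.96% lower. Psmc6 read -0.40, -0.22, -0.48, -0.53 and 0.29 in sham and -0.68, -0.73, -0.81, -0.77 and -0.43 in PPE aorta. For Psmc6 the groups overlapped and the difference missed the threshold (SE 0.16, limma adjusted p = 0.0611). Psmc4 ran from -0.46 to 0.18 in sham and from -0.23 to 0.36 in PPE aorta.

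Of the 14 non-ATPase genes, 0 were called, beside 13.8% of all genes called higher and 9.96% lower. Their differences ran from -0.20 (Psmd8) to 0.70 (Psmd10). Psmd10, which encodes the assembly chaperone gankyrin, read -0.85, -1.22, -0.87, -1.05 and -0.98 in sham and 0.27, -0.32, -0.45, -0.12 and -0.86 in PPE aorta. Only PPE 5 lay within the sham range. The difference was 0.70 ± 0.18 (SE, limma adjusted p = 0.0117), and its second probe gave 0.60. It passed the threshold when PPE 5 was left out (0.84, limma adjusted p = 0.00146) or with both arrays numbered 5 left out. It also passed from the LogRatio, from the series matrix, with an offset of 10, with probes above background on all arrays, with the mean of probes and with slide as a random block (limma adjusted p from 0.00396 to 0.00936). Psmd8 ran from -0.67 to 0.01 in sham and from -0.84 to -0.07 in PPE aorta, and the groups overlapped.

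Over the 36 constitutive genes, groups did not overlap for 3 (Psma4, Psma5 and Psmb6), while 25.4% of all genes tested had groups that did not overlap. The 95% interval of the difference lay within -1 and 1 for 34 of the 36, all but Psmb2 and Psmd10, and within -0.5 and 0.5 for 19. The sign of their median was not stable. It was 0.03 as reported and -0.01 from the scanner's LogRatio, from the series matrix or with scan day as a block, and -0.03, -0.02 and -0.02 without sham 5, PPE 1 and PPE 4. Within slides 1 and 2 it was 0.01 and 0.05. Across arrays, the median level of the constitutive genes was lowest on sham 5 (-0.45) and PPE 5 (-0.44) and ran from -0.25 to -0.02 on the other arrays.

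The choice of scaling mattered for the calls. With each array centred on its median in place of the loess curve, the median difference of all genes moved to 0.41 and that of the constitutive genes to 0.75, with differences from 0.26 to 1.25. The inducible genes then had differences from 1.84 to 2.85, still above every constitutive gene, but none was called, since adjusted p-values ran from 0.0338 to 0.159 (limma). Under that scaling 408 genes were called higher and 8 lower over the whole array, in place of 3116 and 2243. Under each other processing choice and with each array left out, all 5 inducible genes were called higher and lay above every constitutive gene, which was not so for Psme2 within slide 2 alone.

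**Figure D4:**
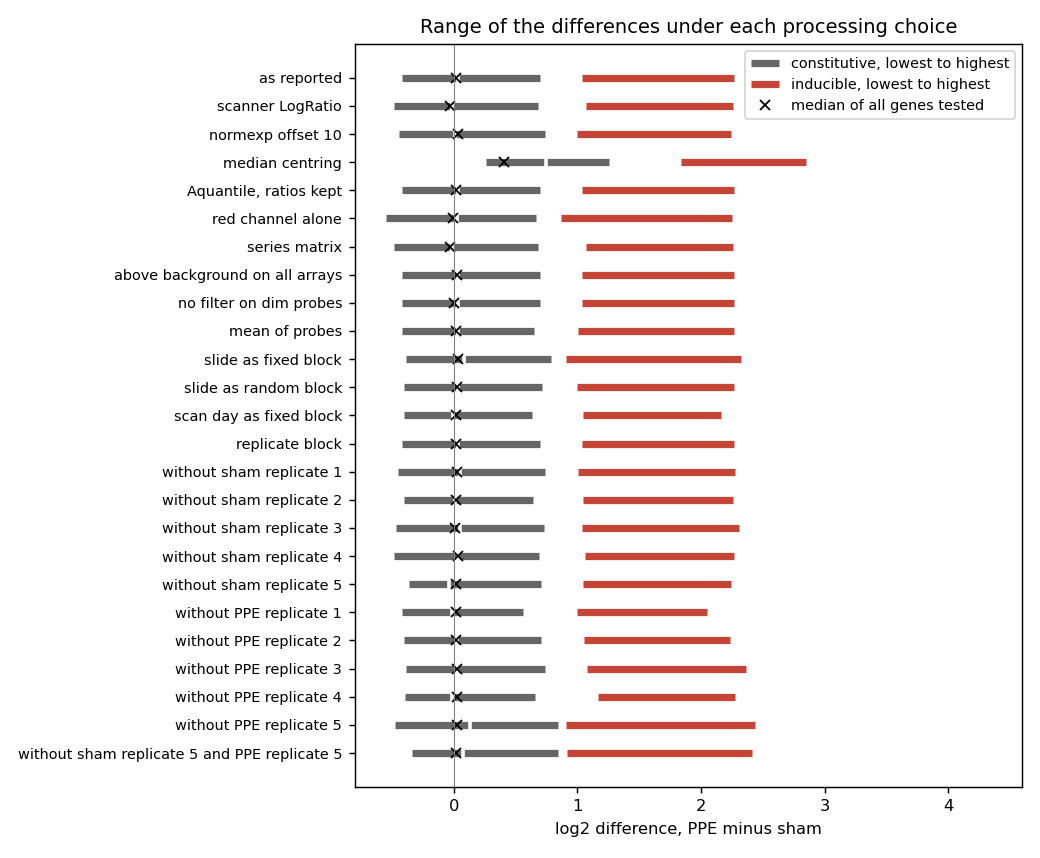
Range of the log2 differences PPE minus sham (horizontal axis) over the 5 inducible genes (red) and the 36 constitutive genes (grey, white tick at the median) under each processing choice (vertical axis), with the median of all genes tested as a cross. In every line the red bar lies to the right of the grey bar; median centring moves both bars to the right, with the all-gene median at 0.41.

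The genes of interferon-gamma signalling were higher in PPE aorta, and their part in the rise of the inducible subunits was not tested. Of the 7 reported here, the 6 that were well above background on all 10 arrays were called higher (13.8% of all genes were). The other gene was Ifng. Ifng read 0.30, 0.13, 0.02, 0.16 and 0.08 in sham, where 1 of 5 arrays was well above background, and 4.55, 3.16, 2.50, 2.57 and 2.02 in PPE aorta, where all 5 were. Its reference signal was well above background on 3 of 10 arrays. Since Ifng passed the filter on dim probes only through the PPE arrays, where it was high, its log2 difference of 2.82 is given as a description, with no test. Nlrc5, the transactivator of MHC class I genes, rose by 2.68 ± 0.14 (SE), and Irf1, a transcription factor for the inducible subunits, by 2.05 ± 0.17 (SE).

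Of 8 genes for loading peptides onto class I molecules, 6 were called higher and 0 lower, beside 13.8% and 9.96% of all genes. Tap1 had the largest difference and Canx, the chaperone calnexin, the smallest. Tap1 read -0.95, -0.37, -0.73, -0.79 and -0.45 in sham and 1.94, 1.25, 0.93, 0.91 and 1.47 in PPE aorta, so the groups were apart. Canx ran from -0.40 to 0.19 in sham and from -0.21 to 0.05 in PPE aorta, a difference of -0.05 ± 0.12 (SE).

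Of 12 assembly factors and proteasome-bound proteins, 1 was called higher and 0 lower, beside 13.8% and 9.96% of all genes. The gene was Pomp, which encodes the maturation protein of the core particle. It read -0.50, -0.39, -0.59, -0.66 and -0.01 in sham and 0.23, 0.17, 0.10, 0.07 and -0.05 in PPE aorta. Sham 5 overlapped with the PPE arrays, and the difference was 0.53 ± 0.13 (SE, limma adjusted p = 0.00797). The call was lost under many of the alternatives, for example without any one of sham 1 to 4 or PPE 1 to 4 (limma adjusted p from 0.0175 to 0.0227). The assembly chaperone Psmg4 had the largest difference of the list, 0.70 ± 0.21 (SE, limma adjusted p = 0.0239), and the ubiquitin receptor Adrm1 the lowest, -0.37 ± 0.20 (SE, limma adjusted p = 0.169). Psmf1, which encodes the proteasome inhibitor PI31, differed by -0.04 ± 0.11 (SE).

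Of the genes of ubiquitin supply, substrate delivery and the NRF1 axis, 15 are reported here. By limma, 0 of these were called in either direction, beside 13.8% of all genes called higher and 9.96% lower. The unadjusted p (limma) was under 0.05 for 5 of the 15, as it was for 43.6% of all genes tested. Nfe2l1 encodes NRF1, the factor that raises constitutive proteasome genes when proteasome activity drops. It read 0.00, -0.11, -0.42, -0.37 and 0.16 in sham and -0.74, -0.84, -0.55, -0.79 and -0.02 in PPE aorta, a difference of -0.44 ± 0.18 (SE, limma adjusted p = 0.0728), and only PPE 5 lay within the sham range. Ddi2, whose product cuts NRF1 into its active form, had the highest difference of the 15, 0.60 ± 0.20 (SE, limma adjusted p = 0.0376).

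The general leukocyte and the macrophage markers, and some of the T cell and fibroblast markers, were higher in PPE aorta, as the inducible subunits were. All 5 leukocyte markers and all 5 macrophage markers were called higher, with median differences of 2.68 and 3.30, larger than any of the inducible subunits. The mean log2 ratio of the leukocyte list ran from -1.22 to -0.38 in sham and from 1.25 to 2.27 in PPE aorta, and that of the macrophage list from -0.49 to 0.05 and from 2.17 to 3.49. Among T cell markers 2 of 4 were called higher, and among B cell markers 0 of 3. For these and the other marker counts, the shares over all genes tested were 13.8% called higher and 9.96% lower. The PPE arrays had the same order, from PPE 1 through 2, 4 and 3 to 5, for the leukocyte list, the interferon-gamma signalling list, Psmb8 and Psme1. Psmb9 (1, 2, 3, 4, 5), the macrophage list (1, 4, 2, 3, 5) and the median of the constitutive genes (1, 4, 3, 2, 5) differed from it. Each of these also began with PPE 1 and ended with PPE 5, so the ends of the order were not particular to the inducible genes. Psmb10 and Psme2 had other orders, with PPE 5 second and first. Smooth muscle markers were lower for 4 of 5 genes, and 0 of 3 endothelial markers were called. The smooth muscle gene not called was Myh11, whose red signal differed by -3.86 and whose green reference signal differed by -3.12. Of the fibroblast markers, 2 of 3 were called higher (Col1a1 by 2.04 and Pdgfra by 0.64). For Col1a1 the red signal differed by only 0.38 (PPE minus sham), while the green signal of the reference RNA differed by -1.65. Of the adipocyte markers 0 of 3 were called, with a median difference of -0.76. The red signal of Adipoq, Plin1 and Fabp4 differed by -1.32, -2.59 and -1.45, and the green signal by -0.87, -1.69 and -0.70. In RNA of the whole wall, more cells of a type and more RNA per cell cannot be told apart, and the part of these cells in the rise of the inducible subunits was not tested.

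**Figure D5:**
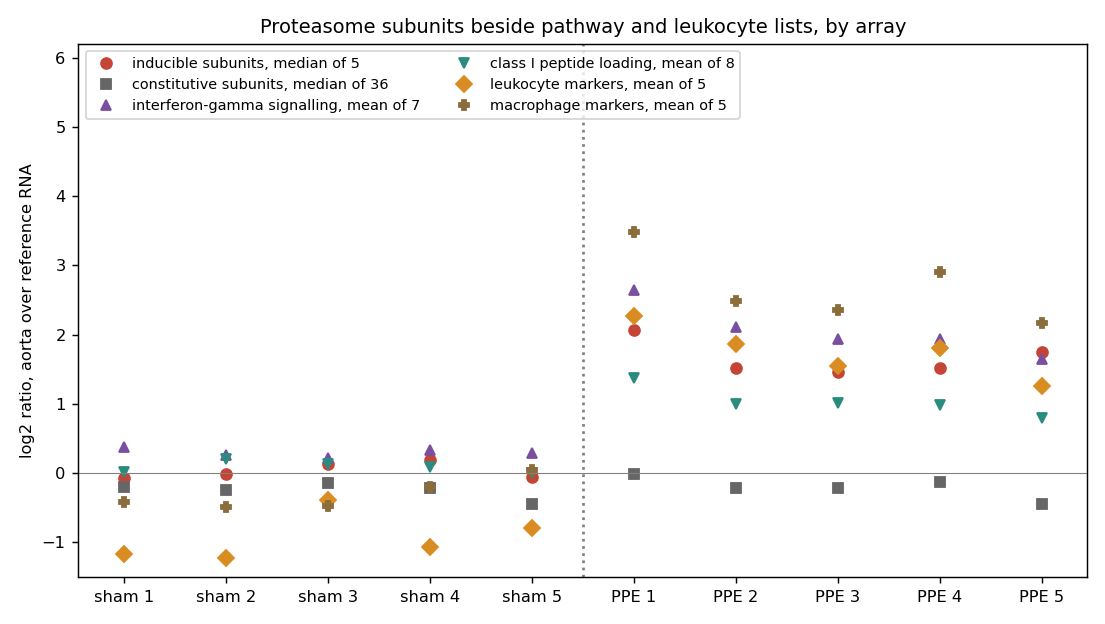
Log2 ratio of aorta over reference RNA (vertical axis) on each of the 10 arrays (horizontal axis), as the median of the inducible or constitutive subunits and the mean of 4 lists. The inducible subunits, both pathway lists and both marker lists are higher on all PPE arrays than on all sham arrays, while the constitutive median stays between -0.45 and -0.02. The interferon-gamma mean includes Ifng, which passed the filter on dim probes only through the PPE arrays.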

How the data were processed

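Aortic RNA (500 ng per array, red, Cy5) was measured against a universal mouse reference (green, Cy3) on 2-colour Agilent arrays, without dye swaps. Per the file headers, spots were extracted by the authors with Feature Extraction 10.7.3.1. Deposited spot signals are linear intensity values. The LogRatio that the authors deposited is on a log10 scale (red over green), and deposited flags mark spots above background, saturated or outlying. The authors' series matrix holds log2 ratios, equal to processed red over green on 100% of spots (tolerance 1e-04). Its centring beyond that is unstated in the sources used here. The methods say that the authors left out arrays of low quality or lying far from the rest, without naming them.

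Background was corrected by normexp (offset 50) and each array normalized by loess (R 4.3.3, limma 3.58.1). The offset draws dim ratios towards 0. Controls and 176 to 331 outlier spots per array were left out, and no spot was saturated. Spots of a probe were averaged. Probes needed red signal well above background on at least 5 arrays (over probes with several spots, a share of 0.5 of the spots), and the brightest one stood for its gene. Of the members, 10 had more than 1 tested probe. Differences were fitted with limma (lmFit, then eBayes; two-sided, no pairing), with Benjamini-Hochberg adjustment over 22520 names and a threshold of 0.01, the level the methods name. SAM, which the authors used, was not run. Pairs of genes were compared by exact permutation tests. The fit was tested on simulated data.

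The members and gene lists were chosen with earlier results of these data known. Every member could be named. Values on all arrays were given for the inducible genes, their counterparts, Psme4 and the extremes of each sub-complex, and from the pathway lists for preset genes and each list's extremes. Paaf1, in the list of bound proteins, had no probe under that name, so 12 of 13 were tested. In the interferon-gamma and ubiquitin lists, 1 gene each is not reported here, and counts and means leave it out. Promoter sequences are RefSeq's (GRCm38.p6), matched by symbol for all 5 inducible and 30 of 36 constitutive genes. Motifs and shown stretches were chosen after the values were seen. Alternatives were the LogRatio, the series matrix, another offset (10), median centring, Aquantile, the red channel alone, 2 filters, the mean of probes, blocks for slide, scan day and replicate number, and leaving out each array. Leaving out both arrays numbered 5 was added after seeing the data. The number of arrays limits precision.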

Additional observations from a re-analysis of the deposited data

Results flagged for a closer look

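Among 66 groups of 5 arrays (the named genes and the 5 within-array pairs), 1 had an array set apart from the rest by Dixon's criterion. Irf1 read 2.79 on PPE 1 against 2.03 on the next highest array. The gap was a share of 0.759 of the range of the PPE group, above the limit of 0.71. Chance alone marks about 1 group in 20.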

How the results depend on the processing

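With median centring, 408 genes were called higher and 8 lower, 0 proteasome genes and 0 inducible genes were called higher, and the constitutive median was 0.75. The cause was not tested. The constitutive genes called higher numbered 2 as reported, 1 with an offset of 10, and 0 with median centring, from the red channel alone, with slide as a fixed block and with a replicate block. They numbered 3 with probes above background on all arrays, with slide as a random block and without both arrays numbered 5. With 1 array left out they numbered from 0 to 3. The within-array shifts of Psme1 and Psme2 against Psme3 were 0.50 and 0.33 from the red channel alone, and without both arrays numbered 5 that of Psme2 was 0.69 (exact permutation p = 0.0571). With 1 array left out they ran from 0.80 to 1.18 and from 0.74 to 1.01. Apart from the sign of the constitutive median, given above, the other counts and shifts kept their direction and their side of the threshold under the alternatives run. Shifts within arrays could not be fitted with slide as a random block, and Aquantile leaves ratios unchanged by construction.

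Same-numbered arrays were not treated as pairs in the fit. The correlations of their deviations from the group means ran from -0.30 to 0.52 over replicates 1 to 5, and only number 5 had its best correlation with its own number. Sham 1 and PPE 1 shared slide 1, and sham 3 and PPE 3 shared slide 2. With the replicate block, the inducible genes called higher stayed at 5, and those of all proteasome genes went from 7 to 5.

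All 41 tested members were above background on all 10 arrays. Whether signal strength affected their differences was not tested. Ifng was above background on 1 sham array.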
